A study of Homo sapiens with 18 samples.

Results

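The aminoacyl-tRNA synthetase genes were the rows of the deposited count table whose symbol was one of 36 listed members, out of 25296 genes. Of these, 20 code for enzymes of the cytosol and 16 for enzymes of the mitochondrion. All 36 members passed the filter on low counts, which left 18226 genes tested. The cells were U2OS, a human osteosarcoma line, in 3 versions. The EV line carried the MigR1 retroviral vector without an insert, the WT line overexpressed wild-type DNMT3A (a DNA methyltransferase), and the MUT line overexpressed DNMT3A with a substitution for which the labels give 2 different residues at the same position. The labels do not say whether a line was 1 clone or a pool. Each line was sequenced untreated, which the series text calls a vehicle control, and 24 h after the start of 10 µM cytarabine, a nucleoside analogue that blocks DNA synthesis. The labels describe the 3 libraries in each of the 6 groups as biological triplicates, without saying what separated them.

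Each synthetase joins 1 amino acid to its transfer RNA, the step that sets the meaning of a codon. The cytosolic and the mitochondrial sets are both coded in the nucleus, mostly by separate genes, and the mitochondrial enzymes carry the suffix 2 in their symbols. GARS and KARS (glycine and lysine) make both forms from 1 gene. Several cytosolic enzymes sit together in the multisynthetase complex. Many cytosolic synthetase genes are known targets of ATF4, the transcription factor of the integrated stress response, which reads elements of the form TGATGNAA.

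The members' promoters are shown first because they carry the feature that the cytosolic genes were searched for. RefSeq promoter windows on GRCh38.p14 (250 bases before to 50 bases after the start) were found for 30 members, and 9 of these had more than 1 window. DARS, LARS, VARS, YARS, AARS2 and VARS2 had no entry in the table used. The letters TGATGNAA, searched on both strands, stood in 8 of the members' 39 windows, against 3.62% of all 35116 promoter windows (1270 windows). These 8 windows belonged to 7 cytosolic members and 1 mitochondrial member, out of 21 cytosolic and 18 mitochondrial windows. The stretches around the matches are given 5′ to 3′ along each gene, with the match in capitals; positions are counted from the RefSeq start.
AARS (chr16:70289666-70289733, minus strand, match 187 to 180 bases before the start): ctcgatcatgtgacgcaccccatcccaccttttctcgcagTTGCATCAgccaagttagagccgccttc
CARS (chr11:3057418-3057465, minus strand, match across the start): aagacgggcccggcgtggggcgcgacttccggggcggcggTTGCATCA
GARS (chr7:30594805-30594872, plus strand, match 33 to 26 bases before the start): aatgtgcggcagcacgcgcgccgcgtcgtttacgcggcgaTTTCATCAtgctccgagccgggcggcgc
IARS (chr9:92293698-92293750, minus strand, match 13 to 6 bases before the start): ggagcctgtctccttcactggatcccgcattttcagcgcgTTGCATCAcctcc
MARS (chr12:57488024-57488071, plus strand, match across the start): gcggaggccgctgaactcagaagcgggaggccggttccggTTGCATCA
NARS (chr18:57621815-57621862, minus strand, match 15 to 22 bases after the start): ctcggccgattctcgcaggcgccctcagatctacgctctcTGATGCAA
TARS (chr5:33440927-33440974, plus strand, match 3 to 10 bases after the start): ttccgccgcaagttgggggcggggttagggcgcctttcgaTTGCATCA
YARS2 (chr12:32756067-32756134, minus strand, match 197 to 190 bases before the start): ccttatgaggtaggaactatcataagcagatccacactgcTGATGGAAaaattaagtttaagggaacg
All 7 cytosolic matches but that of GARS had the same 8 letters on 1 strand or the other. The letters TGACGTCA stood in 0 of the 39 windows, against 1.85% of all windows. CACGTG stood in 5 of the 39 (IARS, CARS2, MARS2 and both windows of EARS2), against 7.26% of all windows. A match describes the letters only.

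HARS and HARS2, the cytosolic and mitochondrial histidine enzymes, are neighbours on chromosome 5 and are read in opposite directions. Their RefSeq starts have 84 bases between them on GRCh38.p14, and this stretch with its 9 CpG sites is shown because it lies before both starts. In the coordinates deposited with the counts the 2 genes overlap by 438 bases. Whether the stretch acts on either gene was not tested.
HARS2 and HARS (chr5:140691371-140691454, plus strand): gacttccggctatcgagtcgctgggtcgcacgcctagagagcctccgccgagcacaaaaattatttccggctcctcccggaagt
The median promoter window held 22 CpG sites over the cytosolic members and 23 over the mitochondrial members, against 14 over all windows.

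The labels were checked against the counts. DNMT3A stood at 26.2 to 27.5 CPM (counts per 1e+06 of the scaled library) in untreated EV, at 129 to 139 CPM in untreated WT and at 254 to 615 CPM in untreated MUT. VIM and SPARC, markers of mesenchymal cells, were at 967 to 2600 CPM and at 805 to 1170 CPM, and the bone lineage genes RUNX2, ALPL and COL1A2 had medians of 44.4, 9.25 and 1.9 CPM. The epithelial genes EPCAM and CDH1 had medians of 3.24 and 1.98 CPM, while PECAM1, an endothelial marker, and ALB, a liver marker, had medians of 0.121 and 0.215 CPM. Library totals ran from 15.4 M to 21.9 M counts (M for 1e+06). The 3 untreated MUT libraries differed most among themselves in the summed synthetase level, and results that rest on 1 of them are given without it below. Within each line, treated libraries had more genes with a count than untreated ones. Over all lines the ranges overlapped, at 22379 to 23622 treated and 21569 to 22511 untreated. The part of this difference in the results was not tested.

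Per kilobase of the MANE transcript, cytosolic synthetase mRNAs were the more abundant set in every group. In untreated EV cells the median level was 60.8 CPM per kb over the 20 cytosolic members and 9.31 CPM per kb over the 16 mitochondrial members. TARS, the threonine enzyme, was highest at 180.1 CPM per kb, followed by SARS (serine) at 149.8 and KARS (lysine) at 145.9 CPM per kb. The lowest cytosolic member was FARSB, the beta subunit of the phenylalanine enzyme, at 12.2 ± 0.31 CPM per kb (SD, n = 3), while FARSA, its alpha subunit, stood at 58.8 ± 2.62 CPM per kb (SD, n = 3). Both subunits are needed for the active enzyme. FARSB has a MANE transcript of 6761 bases and FARSA one of 1811 bases, and before division by length they stood at 82.4 and 106.5 CPM in the same cells; which transcript ends these cells use was not tested. IARS2 (isoleucine) led the mitochondrial set at 30.0 CPM per kb and PARS2 (proline) closed it at 5.25 CPM per kb. At the ends of the order, SARS in place of TARS was the highest cytosolic member in all 3 treated groups, and SARS2 was the lowest mitochondrial member in treated EV and WT.

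**Figure D1:**
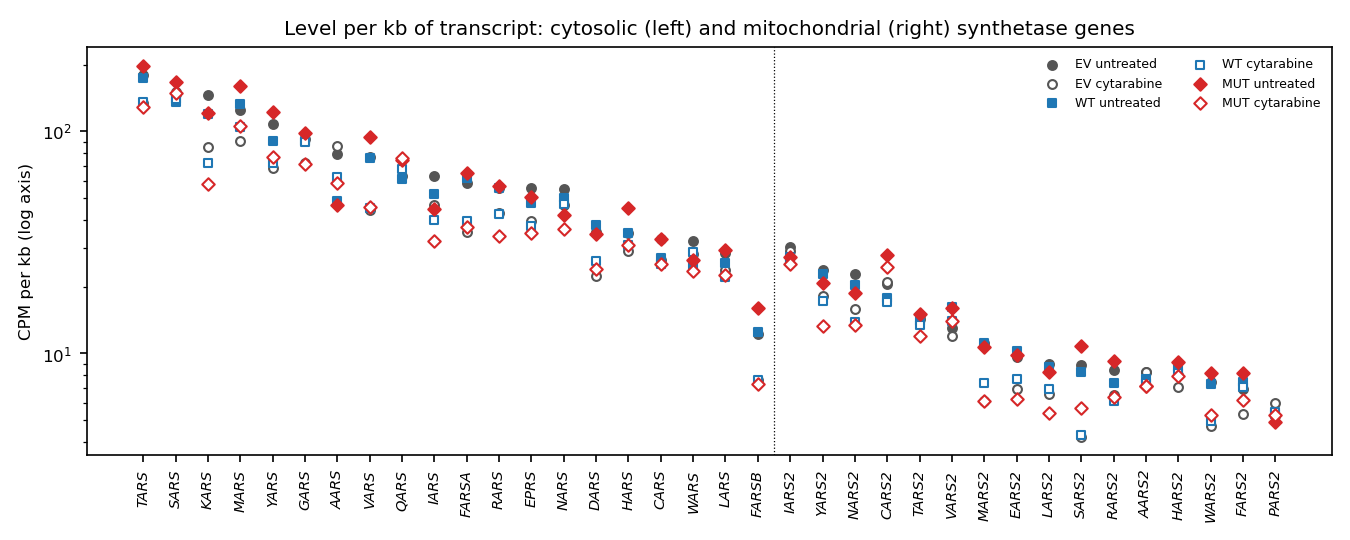
Mean level of each member in CPM per kb of MANE transcript on a log axis, in the 6 groups (3 libraries each; filled symbols untreated, open symbols cytarabine). Cytosolic genes stand left of the dotted line and mitochondrial genes right of it; FARSB is the lowest cytosolic gene in every group, at 12.2 CPM per kb in untreated EV.

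Cytarabine lowered most synthetase mRNAs of both compartments in all 3 lines. In EV cells 17 of 20 cytosolic members fell and 1 rose, and 9 of 16 mitochondrial members fell and 0 rose (edgeR quasi-likelihood test, Benjamini-Hochberg adjusted p under 0.05 over all 18226 genes). Among all tested genes 22.9% were lower and 26.1% higher in this comparison. In WT cells 12 cytosolic members fell and 3 rose, and 9 mitochondrial members fell, where 22.7% of all genes were lower and 26.3% higher. In MUT cells 17 cytosolic members fell and 1 rose, and 12 mitochondrial members fell, where 25.9% of all genes were lower and 30.4% higher. Abundant genes were lower more often: of the 9949 genes at least as abundant as the least abundant member, 37.9% were lower in EV, 35.7% in WT and 39.8% in MUT. The members' share stayed above those figures in each line and in both compartments. That floor was set by FARS2, a mitochondrial member, at a mean log2 CPM of 3.52. The cytosolic members ran from 6.04 (HARS) to 8.71 (TARS), and the share lower among genes as abundant as these was not taken.

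Cytosolic members had medians of -0.40, -0.34 and -0.54 on the log2 scale (EV, WT, MUT). The mitochondrial medians were -0.37, -0.24 and -0.44 in the same order, against 0.05, 0.03 and 0.05 over all tested genes and -0.11, -0.09 and -0.09 over the 9949 genes at least as abundant. These are changes relative to the scaled library and not to the library total. The scaling factors ran from 1.04 to 1.11 in treated libraries and from 0.862 to 0.961 in untreated ones. A higher factor lowers the CPM of every gene, and no alternative used library totals alone. In bulk samples fewer cells of a type and less RNA per cell cannot be told apart. The treated and the untreated libraries did not overlap, with treated lower, for 17 cytosolic and 10 mitochondrial members in EV (28.1% of all genes), for 14 and 10 in WT (31.9%) and for 16 and 12 in MUT (24.5%). In all 3 lines 20 members fell, 12 of them cytosolic (DARS, EPRS, FARSA, FARSB, IARS, KARS, LARS, MARS, RARS, TARS, VARS and YARS) and 8 mitochondrial (EARS2, LARS2, MARS2, NARS2, RARS2, SARS2, WARS2 and YARS2), where 16.4% of all genes were lower in all 3 lines. The WT calls of LARS, LARS2 and RARS2 passed in 21, 22 and 21 of 27 alternatives, and each ended without any 1 of 4 WT libraries (adjusted p 0.0502 to 0.104). AARS, QARS, AARS2, CARS2, IARS2 and PARS2 fell in none.

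**Figure D2:**
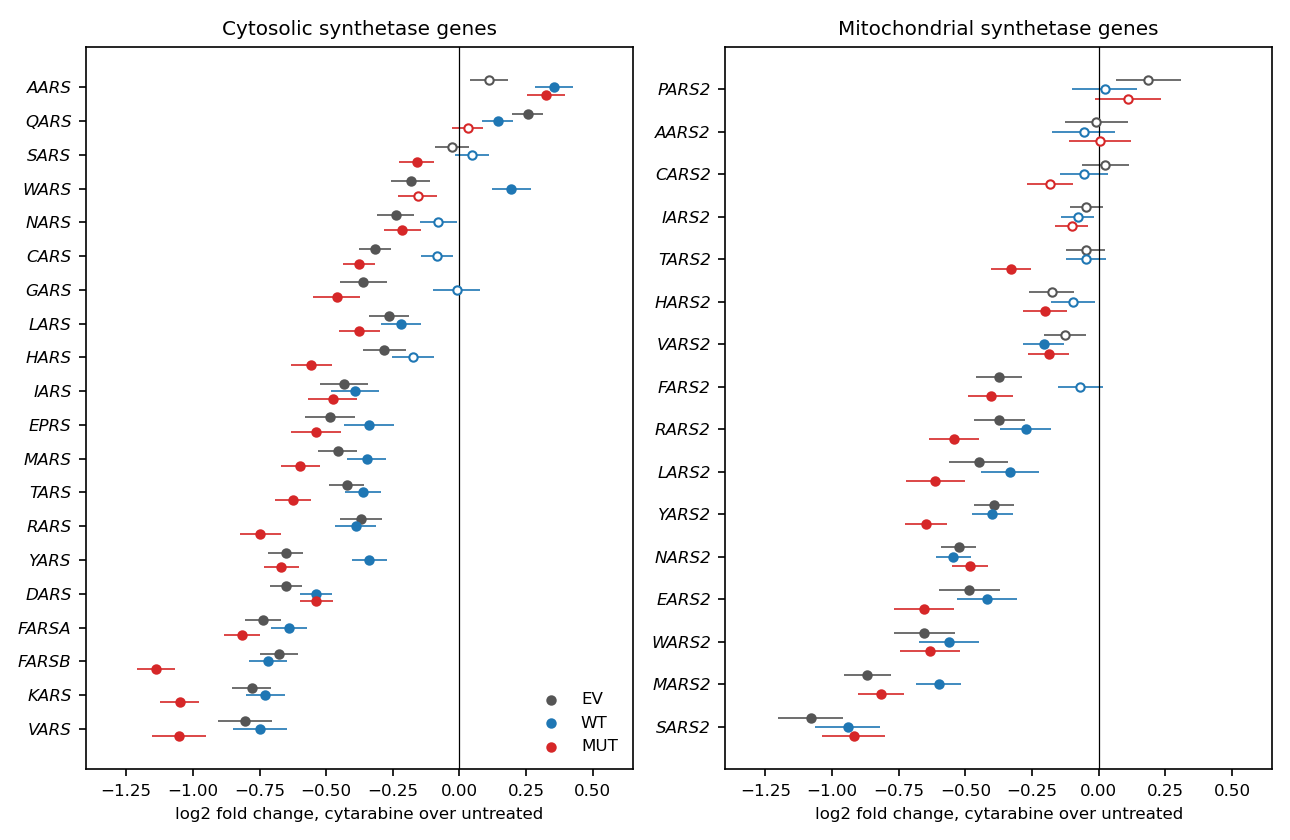
log2 fold change of each member, cytarabine over untreated, in EV, WT and MUT cells with its standard error (edgeR; 3 libraries a group; filled points passed the adjusted p threshold of 0.05, open points did not). Most points lie left of 0 in both panels, AARS lies to the right of 0 in all 3 lines, as does QARS, whose MUT value of 0.03 turns to -0.05 with the authors' scaling, and VARS and SARS2 stand at the bottom of their panels.

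Summed over each compartment, the untreated EV libraries held 4174, 4128 and 4096 CPM of cytosolic synthetase mRNA and the treated ones 3056, 3366 and 3135 CPM. The WT sums were 3814, 3667 and 3823 CPM untreated and 3084, 3174 and 3100 CPM treated. The MUT sums were 3888, 4643 and 4100 CPM untreated and 2887, 3038 and 2932 CPM treated. Treated sums lay below untreated sums without overlap in each line, and untreated MUT replicate 2 was the highest library of all. The mitochondrial sums fell from 591 to 620 CPM in untreated EV to 478 to 534 CPM in treated EV, with 582 to 597 against 481 to 504 CPM in WT and 583 to 636 against 457 to 481 CPM in MUT. The cytosolic sum was 6.83 ± 0.0973 times the mitochondrial sum in untreated EV and 6.33 ± 0.0495 times in treated EV (SD, n = 3). The ratio was 6.40 ± 0.164 and 6.34 ± 0.0899 in WT, and 6.94 ± 0.325 and 6.25 ± 0.115 in MUT. The ratio was thus lower in every treated EV library than in every untreated one, as it was in MUT, and the groups overlapped in WT. The difference between the median log2 CPM of the compartments moved the other way, from 2.26 to 2.33 in EV, from 2.15 to 2.28 in WT and from 2.22 to 2.26 in MUT. No test was made of either summary over members.

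**Figure D3:**
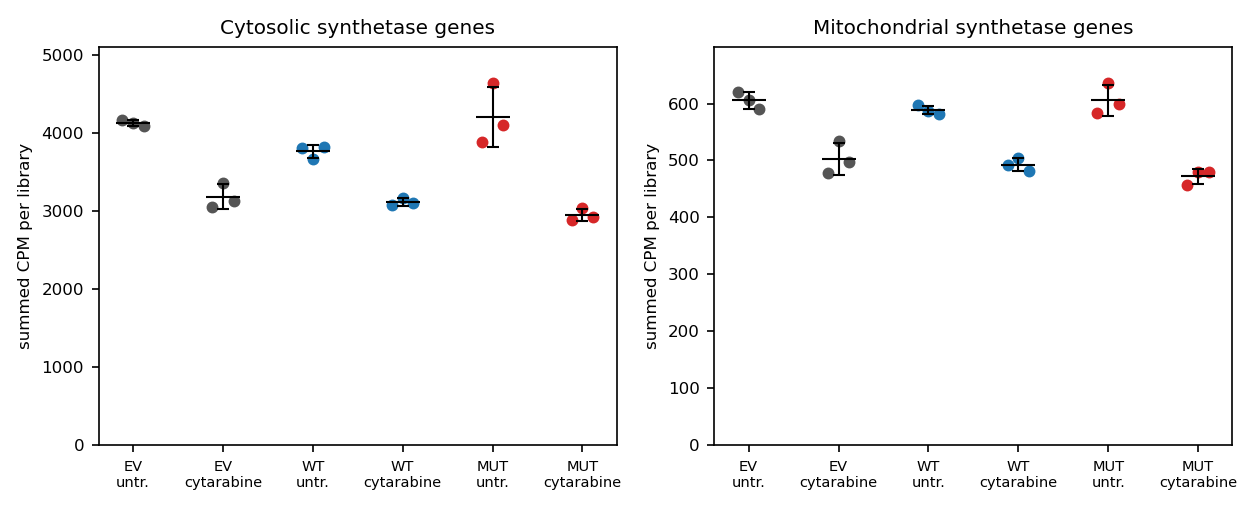
Summed CPM of the 20 cytosolic and the 16 mitochondrial synthetase genes in each library (points), with the mean and SD of the 3 libraries of each group (black bars; axes start at 0). Treated libraries lie below untreated ones in each line, and the cytosolic sums of untreated MUT spread from 3888 to 4643 CPM.

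For 14 amino acids the list holds separate genes for each compartment that serve no other amino acid, which allows a comparison within the pair. EPRS serves both glutamate and proline and was left out of the pairs, as were EARS2 and PARS2. In EV, WT and MUT, EPRS changed by -0.49, -0.34 and -0.54, EARS2 by -0.48, -0.42 and -0.66, and PARS2 by 0.19, 0.02 and 0.11. Among the 14 pairs the mitochondrial gene had the higher log2 fold change (the smaller fall or the larger rise) in 7 in EV, in 7 in WT and in 8 in MUT. Serine showed the widest gap in favour of the cytosolic gene: SARS changed by -0.03 and SARS2 by -1.08 on the log2 scale in EV, with 0.05 and -0.94 in WT and -0.16 and -0.92 in MUT. Valine showed the widest gap the other way in EV and MUT: VARS changed by -0.80 and VARS2 by -0.13 in EV, by -0.75 and -0.21 in WT, and by -1.05 and -0.19 in MUT. In WT the widest such gap was that of phenylalanine, with -0.68 for the mean of FARSA and FARSB and -0.07 for FARS2. In these pairs neither compartment had the larger change throughout. The differences within pairs were not tested.

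Most enzymes of the multisynthetase complex fell, as did most other cytosolic enzymes in EV and MUT. Of the 8 enzymes in the complex, 7 fell in each line (where 22.9%, 22.7% and 25.9% of all genes fell), against 10, 5 and 10 of the 12 other cytosolic members in EV, WT and MUT. The 7 were EPRS (glutamate and proline), MARS (methionine), RARS (arginine), KARS, LARS (leucine), IARS (isoleucine) and DARS (aspartate). Their falls ran from -0.26 (LARS) to -0.78 (KARS) in EV, from -0.22 (LARS) to -0.73 (KARS) in WT, and from -0.38 (LARS) to -1.05 (KARS) in MUT. The 3 scaffold proteins of the complex, AIMP1, AIMP2 and EEF1E1, fell too, with AIMP2 at -0.82 in EV, -0.71 in WT and -1.04 in MUT. The 8th enzyme, QARS, did not fall in any line.

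KARS (chr16:75627474-75648644, minus strand, hg38) gave 297, 291 and 284 CPM in untreated EV and 164, 181 and 164 CPM in treated EV. Untreated WT held 238, 237 and 239 CPM and treated WT 139, 145 and 146 CPM. Untreated MUT held 212, 269 and 239 CPM and treated MUT 112, 114 and 121 CPM. No treated library reached an untreated library of its line, and the treated MUT libraries were the lowest of the 18. The log2 fold change was -0.78 ± 0.0731 in EV, -0.73 ± 0.0732 in WT and -1.05 ± 0.0737 in MUT (SE; edgeR adjusted p 6.1e-08, 1.41e-07 and 1.02e-09), and the call held in all 27 alternative fits in each line. KARS overlaps TERF2IP on the other strand by 859 bases, and the effect of this on its counts was not tested.

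QARS (chr3:49095932-49105136, minus strand), the glutamine enzyme, gave 157, 153 and 151 CPM in untreated EV and 178, 186 and 186 CPM in treated EV. Untreated WT held 159, 147 and 143 CPM and treated WT 171, 161 and 165 CPM. Untreated MUT held 177, 188 and 183 CPM and treated MUT 193, 180.4 and 186 CPM. EV and WT libraries were higher with cytarabine without overlap, whereas the MUT groups overlapped and were high in both. QARS rose by 0.26 ± 0.0585 in EV (SE; edgeR adjusted p = 0.00125; 26 of 27 alternatives past the threshold) and by 0.14 ± 0.0584 in WT (adjusted p = 0.0484), and the value in MUT was 0.03 ± 0.0582 (adjusted p = 0.68), which turned negative with 2 other scalings and DESeq2. The WT call was near the threshold and passed in 10 of 27 alternatives, and leaving out any 1 of 13 libraries ended it (adjusted p 0.0522 to 0.199).

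Outside the complex, AARS, the alanine enzyme (chr16:70252295-70289544, minus strand), moved against the set. It gave 271, 268 and 277 CPM in untreated EV and 288, 309.6 and 285 CPM in treated EV. Untreated WT held 167, 161 and 173 CPM and treated WT 215, 212 and 214 CPM. Untreated MUT held 158, 181 and 142 CPM and treated MUT 198, 205 and 198 CPM. Treated libraries lay above untreated ones without overlap in each line, and all EV libraries lay above all WT and MUT libraries. AARS rose by 0.36 ± 0.071 in WT and by 0.33 ± 0.0711 in MUT (SE; edgeR adjusted p = 0.000353 and 0.000672; 26 of 27 alternatives in each line). The EV value of 0.11 ± 0.0705 missed the threshold (adjusted p = 0.21), though it passed with upper-quartile scaling and with a stricter count filter (adjusted p = 0.0327 and 0.0492, in a range over the alternatives from 0.0327 to 0.981). Neither difference from EV passed, at 0.25 ± 0.1 for WT (adjusted p = 0.424) and 0.22 ± 0.1 for MUT (adjusted p = 0.303).

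WARS, the tryptophan enzyme (chr14:100333788-100376806, minus strand) and a known target of interferon-gamma, gave 85.2, 85.2 and 83.0 CPM in untreated EV and 73.7, 78.2 and 71.2 CPM in treated EV. Untreated WT held 66.3, 64.5 and 67.1 CPM and treated WT 72.6, 79.1 and 75.0 CPM. Untreated MUT held 63.3, 79.1 and 66.4 CPM and treated MUT 59.1, 63.9 and 64.2 CPM. Treated libraries were lower than untreated ones in EV, higher in WT, and overlapped them in MUT. WARS fell by 0.18 ± 0.0737 on the log2 scale in EV and rose by 0.19 ± 0.0738 in WT (SE; edgeR adjusted p = 0.0455 and 0.0348), with -0.16 ± 0.0741 in MUT (adjusted p = 0.0791; 6 of 27 alternatives). The test of the difference between WT and EV gave 0.38 ± 0.104 (adjusted p = 0.186), so a difference between the lines was not shown. The EV call passed in 11 of 27 alternatives and ended with upper-quartile scaling, at -0.11, and without any 1 of 13 libraries (adjusted p 0.0503 to 0.157). The WT call passed in 20 and ended without treated replicate 2 or 3 or any untreated WT library (adjusted p 0.0633 to 0.129).

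**Figure D4:**
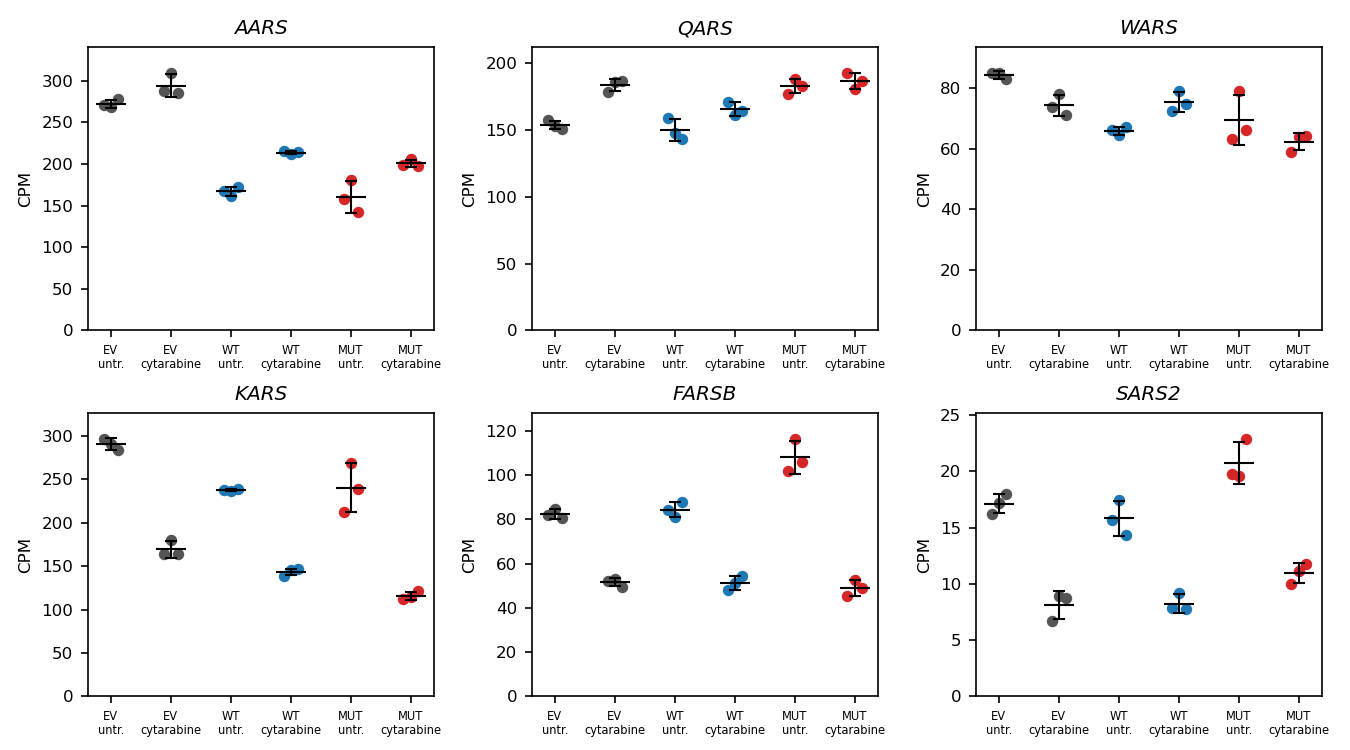
CPM of AARS, QARS, WARS, KARS, FARSB and SARS2 in each library (points) with the mean and SD of 3 libraries a group (black bars; axes start at 0). AARS is higher with cytarabine in each line, KARS, FARSB and SARS2 are lower, and the WARS groups move in different directions in EV and WT.

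The phenylalanine and valine genes had some of the largest falls. VARS (chr6:31777518-31795954, minus strand) gave 319, 318 and 314 CPM in untreated EV and 162, 210.2 and 172 CPM in treated EV. Untreated WT held 313, 306 and 315 CPM and treated WT 174, 197 and 184 CPM. Untreated MUT held 342, 466 and 359 CPM and treated MUT 179, 191 and 193 CPM. Every treated library lay below every untreated library, and untreated MUT replicate 2 stood above the rest. The log2 fold change was -0.80 ± 0.101 in EV, -0.75 ± 0.101 in WT and -1.05 ± 0.101 in MUT (SE; edgeR adjusted p 2.36e-06, 5.34e-06 and 5.72e-08), and each call held in 27 of 27 alternatives, that without this library included.

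FARSB (chr2:222570536-222656338, minus strand) gave 82.1, 84.6 and 80.4 CPM in untreated EV and 52.4, 52.9 and 49.4 CPM in treated EV. Untreated WT held 84.1, 81.3 and 88.0 CPM and treated WT 48.2, 51.3 and 54.6 CPM. Untreated MUT held 102, 116 and 106 CPM and treated MUT 45.5, 52.6 and 49.0 CPM. The treated libraries of the 3 lines overlapped, and the untreated MUT libraries lay above all other untreated ones. FARSB fell by 0.68 ± 0.0714 in EV, by 0.72 ± 0.071 in WT and by 1.14 ± 0.0711 in MUT on the log2 scale (SE; edgeR adjusted p 2.63e-07, 1.16e-07 and 2.47e-10). FARSA fell by 0.74 ± 0.068, 0.64 ± 0.0675 and 0.82 ± 0.0676 in the same order.

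The test of whether the cytarabine effect differed between lines called 1 member in all. FARSB fell further in MUT than in WT, with a difference of -0.42 ± 0.0999 (SE; edgeR adjusted p = 0.0465), in a comparison where 0.494% of all genes were lower by this test. This call passed in 12 of 27 alternatives (adjusted p 0.00141 to 0.597). It held without any 1 untreated MUT library, without treated MUT replicate 2 or without treated EV replicate 1, and it missed when any 1 of the other 13 libraries was left out (adjusted p 0.0532 to 0.134). Of MUT against EV the FARSB difference was -0.46 ± 0.1 (adjusted p = 0.055). No member passed for WT against EV (0.285% of all genes called) or for MUT against EV (0.214%) in edgeR, with 7 and 9 of 36 members at an unadjusted p under 0.05 (1815 and 2882 of all 18226 genes), and 15 for MUT against WT (2810 genes). DESeq2 called 0, 3 and 9 members in these 3 comparisons. Leaving out untreated MUT replicate 1 raised the edgeR counts to 3 for MUT against EV and to 9 for MUT against WT.

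The other free cytosolic enzymes fell in some or all lines. TARS fell by 0.42 in EV, 0.36 in WT and 0.62 in MUT on the log2 scale, and YARS (tyrosine) by 0.65, 0.34 and 0.67. CARS (cysteine), GARS, HARS and NARS (asparagine) fell in EV and MUT, with HARS at -0.28 and -0.56, and did not pass in WT, where their values ran from -0.17 (HARS) to -0.01 (GARS). HARS overlaps HARS2 by 438 bases and WDR55 by 222 bases on the other strand, and the effect on HARS and HARS2 was not tested. SARS passed in MUT alone, at -0.16 ± 0.0644 (SE; edgeR adjusted p = 0.0399; 15 of 27 alternatives). The difference between lines passed for none of these 7 genes.

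Members with and without the TGATGNAA letters were set side by side within the cytosolic class. For EV, WT and MUT, the 7 genes with a match had median log2 changes of -0.36, -0.09 and -0.46. The 9 genes with a promoter entry and no match had medians of -0.37, -0.34 and -0.56, and the 4 without an entry -0.65, -0.44 and -0.60. In WT 3 of the 7 genes with a match fell (IARS, MARS and TARS) and AARS rose, while CARS, GARS and NARS did not pass. These medians are descriptions of small sets.

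The mitochondrial set held the member with the largest fall in EV and in WT. SARS2 (chr19:38915266-38930897, minus strand), the serine enzyme, gave 16.2, 17.2 and 17.95 CPM in untreated EV and 6.70, 8.93 and 8.72 CPM in treated EV. Untreated WT held 15.7, 17.5 and 14.4 CPM and treated WT 7.84, 9.19 and 7.74 CPM. Untreated MUT held 19.8, 19.6 and 22.9 CPM and treated MUT 10.0, 11.1 and 11.8 CPM. Every treated library lay below every untreated one, and MUT was highest in both states. SARS2 fell by 1.08 ± 0.122 in EV, by 0.94 ± 0.121 in WT and by 0.92 ± 0.117 in MUT on the log2 scale (SE; edgeR adjusted p 6.39e-07, 3.07e-06 and 1.95e-06; 27 of 27 alternatives in each line). SARS2 overlaps MRPS12, a mitochondrial ribosomal protein gene on the other strand, by 350 bases, and the effect of this was not tested.

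MARS2 (chr2:197705369-197708388, plus strand), the methionine enzyme, gave 33.4, 34.3 and 33.8 CPM in untreated EV and 16.8, 20.4 and 18.5 CPM in treated EV. Untreated WT held 36.2, 33.0 and 32.0 CPM and treated WT 21.7, 22.9 and 22.2 CPM. Untreated MUT held 34.4, 33.1 and 29.9 CPM and treated MUT 16.8, 19.1 and 19.4 CPM. The untreated lines overlapped and the treated WT libraries lay above all other treated ones. MARS2 fell by 0.87 ± 0.0869 in EV, by 0.60 ± 0.0853 in WT and by 0.82 ± 0.0862 in MUT on the log2 scale (SE; edgeR adjusted p 1.37e-07, 9.71e-06 and 1.78e-07).

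Of the other mitochondrial enzymes, WARS2 (tryptophan) fell by 0.65, 0.56 and 0.63 and NARS2 (asparagine) by 0.52, 0.55 and 0.48 in EV, WT and MUT on the log2 scale. EARS2 (glutamate) fell by 0.48, 0.42 and 0.66, LARS2 (leucine) by 0.45, 0.33 and 0.61, RARS2 (arginine) by 0.37, 0.27 and 0.54 and YARS2 (tyrosine) by 0.39, 0.40 and 0.65. FARS2 (phenylalanine) fell in EV and MUT, at -0.37 and -0.40, and VARS2 fell in WT and MUT, at -0.21 and -0.19 (18 and 12 of 27 alternatives). HARS2 and TARS2 (threonine) passed in MUT alone, at -0.20 and -0.33 (11 and 26 of 27 alternatives). AARS2, CARS2, IARS2 and PARS2 passed in no line, with values from -0.18 (CARS2 in MUT) to 0.19 (PARS2 in EV).

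Genes that act beside the synthetases were read from lists chosen for their role. Over all tested genes 22.9%, 22.7% and 25.9% were lower in EV, WT and MUT. Of 33 genes for tRNA export, processing and modification, 29 fell in EV, 27 in WT and 29 in MUT, with TRMT61A, a subunit of a tRNA adenosine methyltransferase, at -1.46, -1.33 and -1.65 and METTL1, a tRNA guanosine methyltransferase, at -1.05, -1.14 and -1.24. Of 20 mitochondrial translation factors and charging helpers, 13, 12 and 14 fell, with MRRF, the mitochondrial ribosome recycling factor, at -0.86, -0.69 and -0.78 and ELAC2, which trims the 3′ end of tRNA, at -0.66, -0.56 and -0.79. Mitochondrial ribosomal protein genes fell in 64, 53 and 73 of 77, and cytosolic ribosomal protein genes in 60, 67 and 73 of 79 tested. Of 8 cytosolic elongation factor genes, 5, 6 and 7 fell, with EIF5A at -1.23, -1.16 and -1.70. Of 7 synthetase-like and proofreading genes, 4, 3 and 4 fell, with AARSD1, an alanyl-tRNA editing protein, at -0.93, -1.01 and -1.08.

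The targets of ATF4 other than the synthetases moved both ways. Among the 30 listed, EV had 16 that fell and 6 that rose, WT had 9 and 11, and MUT had 13 and 9. Over all tested genes 22.9%, 22.7% and 25.9% were lower and 26.1%, 26.3% and 30.4% higher in the same order. The rises in EV and MUT were near or below the share over all genes. STC2, a secreted glycoprotein, rose by 1.11, 2.01 and 1.71, and SLC7A5, the leucine transporter, fell by 1.42, 1.04 and 1.31 on the log2 scale. SLC3A2, its partner chain, fell by 0.91, 0.65 and 0.79, and ATF4 mRNA itself, named for its role, by 0.48, 0.28 and 0.52. Chosen after their values were seen, CHAC1 and PSAT1 passed the test of the difference between WT and EV, at 1.17 ± 0.176 and 0.52 ± 0.0898 (SE; edgeR adjusted p = 0.00538 and 0.0166), and both were higher in WT. ASNS, the asparagine synthetase, passed between MUT and WT at -0.53 ± 0.115 (adjusted p = 0.0317). Of 9 tested interferon-gamma response genes, which are listed because WARS is one such target, 4 rose in each line (GBP1, GBP2, PSMB9 and TAP1), with GBP2 at 1.38, 1.21 and 1.61, where 26.1%, 26.3% and 30.4% of all genes were higher. IRF1, named because it alone fell, was at -0.31 in EV and -0.23 in MUT.

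The lines were also compared with each other within each treatment. These comparisons share libraries within a treatment, so their values are given side by side and not as independent evidence. Without cytarabine, WT differed from EV in 6 of 36 members, 5 lower and 1 higher, where 7.36% of all genes were lower and 4.30% higher. MUT differed from EV in 13 members, 6 lower and 7 higher, where 10.0% of all genes were lower and 9.88% higher. MUT differed from WT in 12 members, 1 lower and 11 higher, where 9.54% of all genes were lower and 11.7% higher. These calls used 1 estimate of each gene's spread over all 6 groups. The summed cytosolic level had an SD of 389 CPM in untreated MUT, against 39.2 CPM in untreated EV and 87.6 CPM in untreated WT. With only the groups compared in the fit, the counts were 16 (WT against EV), 5 (MUT against EV) and 2 (MUT against WT).

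AARS was the member that differed most from EV in both DNMT3A lines. Its log2 difference, from the values given above, was -0.71 ± 0.0712 in untreated WT and -0.77 ± 0.0713 in untreated MUT (SE; edgeR adjusted p 1.42e-06 and 7.62e-07; 27 of 27 alternatives). With cytarabine the differences were -0.46 ± 0.0707 and -0.55 ± 0.0707 (adjusted p = 0.00016 and 3.99e-05; 27 of 27). MUT against WT gave -0.06 ± 0.0712 untreated (adjusted p = 0.585), and the libraries of these 2 lines overlapped.

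Some of the genes around AARS were lower too. Of 64 tested genes within 2 Mb of it, 25 were lower in WT than in EV and 38 in MUT than in EV without cytarabine, and 0 were higher in either, where 7.36% and 10.0% of all genes were lower. The rest of the 64 did not pass, and the median of all 64 log2 differences was -0.32 in WT and -0.56 in MUT. With cytarabine 21 and 36 of the 64 were lower, and 1 and 0 were higher. KARS lies on the same arm of chromosome 16. Of the 30 tested genes within 2 Mb of KARS, 8 were lower in WT and 17 in MUT without cytarabine, with medians of -0.18 and -0.54, and 0 were higher. KARS itself stood at -0.29 ± 0.0725 in untreated WT and -0.27 ± 0.0726 in untreated MUT (SE; edgeR adjusted p = 0.0124 and 0.0115), and at -0.24 and -0.55 with cytarabine (20 and 27 of 27 alternatives). The untreated KARS calls ended without untreated EV replicate 1 (WT, adjusted p = 0.0561) and without untreated MUT replicate 1 (MUT, adjusted p = 0.0504). The share of a line difference that AARS, KARS or any other member has in common with its neighbours was not tested.

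**Figure D5:**
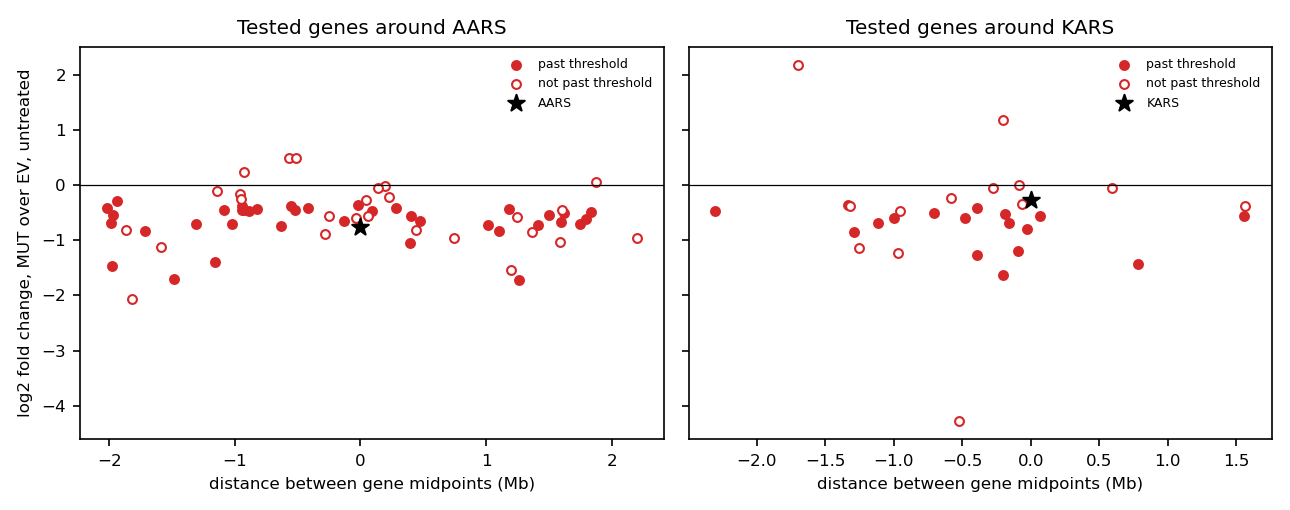
log2 fold change of untreated MUT over untreated EV for each tested gene within 2 Mb of AARS (left) and of KARS (right), against the distance between gene midpoints in Mb (3 libraries a group; filled points passed the adjusted p threshold of 0.05; the star is the named gene). All filled points lie below 0 in both panels.

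The third member on chromosome 16, EARS2 (chr16:23522014-23557732, minus strand), lies on the other arm. It gave 48.8, 49.8 and 51.7 CPM in untreated EV, 53.1, 54.3 and 51.8 CPM in untreated WT and 44.8, 64.8 and 44.4 CPM in untreated MUT. With cytarabine it gave 32.6, 41.0 and 34.0 CPM in EV, 41.0, 40.5 and 37.6 CPM in WT and 31.3, 33.6 and 32.7 CPM in MUT. Untreated WT lay just above untreated EV and treated MUT below treated WT, the other lines overlapped, and EARS2 passed in no line comparison. Its 371-base overlap with UBFD1 on the other strand was not tested for its effect.

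IARS (chr9:92210207-92293757, minus strand) gave 276, 277 and 291 CPM in untreated EV, 237, 223 and 241 CPM in untreated WT and 183, 236 and 184 CPM in untreated MUT. With cytarabine it gave 182, 231 and 212 CPM in EV, 181, 178 and 175 CPM in WT and 142, 146 and 145 CPM in MUT. EV was highest and MUT lowest in both states, and only untreated MUT replicate 2 reached the WT libraries. The difference of MUT from EV was -0.49 ± 0.0899 untreated and -0.53 ± 0.0902 with cytarabine (SE; edgeR adjusted p = 0.000862 and 0.000618; 26 and 27 of 27 alternatives). Of 26 tested genes within 2 Mb of IARS, 13 were lower in untreated MUT than in EV and 0 higher. Their median was -0.37, and 10.0% of all genes were lower in this comparison.

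CARS2 (chr13:110641412-110713604, minus strand), the mitochondrial cysteine enzyme, was higher in MUT than in WT in both states and than in untreated EV. It gave 38.1, 38.4 and 37.4 CPM in untreated EV, 34.9, 29.6 and 33.5 CPM in untreated WT and 44.6, 51.7 and 56.8 CPM in untreated MUT. With cytarabine it gave 35.0, 43.0 and 38.2 CPM in EV, 31.0, 30.9 and 32.5 CPM in WT and 44.3, 44.4 and 46.0 CPM in MUT. MUT lay above both other lines without overlap in both states. MUT differed from WT by 0.64 ± 0.0887 untreated and by 0.51 ± 0.0882 with cytarabine (SE; edgeR adjusted p 4.78e-05 and 0.000377; 27 of 27 alternatives), and from untreated EV by 0.42 ± 0.0885 (adjusted p = 0.0022; 26 of 27). With cytarabine the difference from EV was 0.22 ± 0.0875 and did not pass (adjusted p = 0.111). Of 17 tested genes within 2 Mb, 8 were higher in untreated MUT than in WT and 1 was lower, with a median of 0.46. In this comparison 11.7% of all genes were higher and 9.54% lower. With cytarabine 11 of the 17 were higher in MUT than in WT and 1 was lower, with a median of 0.51. There 10.4% of all genes were higher and 9.48% lower. CARS2 overlaps ING1 on the other strand by 869 bases.

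YARS (chr1:32775237-32818154, minus strand) gave 267, 265 and 256 CPM in untreated EV, 232, 209 and 223 CPM in untreated WT and 277, 319 and 299.7 CPM in untreated MUT. With cytarabine it gave 162, 174 and 166 CPM in EV, 169, 181 and 176 CPM in WT and 179, 196 and 188 CPM in MUT. Untreated WT was the lowest line and untreated MUT the highest, without overlap. MUT exceeded WT by 0.43 ± 0.0658 untreated (SE; edgeR adjusted p = 0.000135; 27 of 27 alternatives), and the difference with cytarabine was 0.10 ± 0.066 (adjusted p = 0.316). SARS2, from the values given above, was higher in MUT than in WT by 0.39 ± 0.115 untreated and 0.41 ± 0.122 with cytarabine (adjusted p = 0.0208 and 0.022). Leaving out untreated WT replicate 1 or 3 ended the first call (adjusted p = 0.0661 and 0.105), and leaving out treated MUT replicate 2 or 3 or treated WT replicate 1 or 3 ended the second (adjusted p 0.0585 to 0.0974). Of tested genes within 2 Mb, 18 of 53 around YARS and 21 of 98 around SARS2 were higher in untreated MUT than in WT. In the same comparison 1 and 3 of them were lower, and 11.7% of all genes were higher.

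VARS2 (chr6:30908242-30926460, plus strand) was higher in both DNMT3A lines than in EV. It gave 48.5, 45.7 and 45.3 CPM in untreated EV, 61.5, 54.4 and 58.0 CPM in untreated WT and 54.0, 56.9 and 60.9 CPM in untreated MUT. With cytarabine it gave 39.6, 45.3 and 43.1 CPM in EV, 48.7, 50.9 and 51.4 CPM in WT and 45.2, 50.5 and 55.2 CPM in MUT. WT exceeded EV without overlap in both states, and treated MUT replicate 1 fell within the treated EV range. The untreated difference from EV was 0.32 ± 0.0782 in WT and 0.30 ± 0.0785 in MUT (SE; edgeR adjusted p = 0.0105 and 0.011). Leaving out untreated EV replicate 2 or 3 or untreated WT replicate 1 ended the WT call (adjusted p 0.0512 to 0.0688), and leaving out untreated EV replicate 3 ended the MUT call (adjusted p = 0.0543). VARS2 shares 5866 bases of the same strand with GTF2H4, and how reads there were counted is not known. Of tested genes within 2 Mb, 8 of 122 around VARS2 were higher in untreated WT than in EV and 5 lower. Around WARS 8 of 24 were lower in this comparison and 0 higher, where 7.36% of all genes were lower and 4.30% higher. WARS, from its values above, was lower than EV by -0.36 ± 0.074 in untreated WT (adjusted p = 0.00301; 26 of 27 alternatives).

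With cytarabine, WT differed from EV in 8 members, 5 higher and 3 lower, where 7.41% of all genes were higher and 9.12% lower. MUT differed from EV in 13 members, 3 higher and 10 lower, where 6.85% of all genes were higher and 7.13% lower. MUT differed from WT in 12 members, 3 higher and 9 lower, where 10.4% of all genes were higher and 9.48% lower. Leaving out treated WT replicate 2 reduced the WT against EV count to 2 and the MUT against WT count to 6, leaving out treated MUT replicate 3 reduced the MUT against EV count to 6, and leaving out untreated MUT replicate 2 or 3 raised the WT against EV count to 13.

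FARS2 (chr6:5261044-5829193, plus strand) gave 8.95, 8.99 and 9.07 CPM in treated EV, 11.9, 11.7 and 12.1 CPM in treated WT and 10.2, 10.6 and 10.2 CPM in treated MUT. Without cytarabine it gave 12.3, 10.9 and 11.9 CPM in EV, 12.2, 12.8 and 12.5 CPM in WT and 13.7, 13.8 and 13.5 CPM in MUT. The treated lines did not overlap, with WT highest and EV lowest. WT exceeded EV by 0.40 ± 0.086 with cytarabine (SE; edgeR adjusted p = 0.00306; 26 of 27 alternatives). The test of whether this line difference changed with treatment gave 0.30 ± 0.121 (adjusted p = 0.415). Of 26 tested genes within 2 Mb of FARS2, 5 were higher in treated WT than in treated EV and 1 lower. In this comparison 7.41% of all genes were higher.

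GARS (chr7:30594681-30634034, plus strand) gave 158, 189.7 and 178 CPM in treated EV, 217, 228 and 209 CPM in treated WT and 166, 182 and 173 CPM in treated MUT. Without cytarabine it gave 223, 219 and 232 CPM in EV, 224, 212 and 224 CPM in WT and 202, 272 and 242 CPM in MUT. The untreated lines overlapped, and the treated WT libraries stood within the untreated range, above treated EV and MUT. WT exceeded EV by 0.32 ± 0.0879 with cytarabine, and MUT stood below WT by -0.33 ± 0.0878 (SE; edgeR adjusted p = 0.0179 and 0.0115). The first call ended without treated EV replicate 1 or treated WT replicate 2 (adjusted p = 0.0898 and 0.0861), the second without treated MUT replicate 1 or treated WT replicate 2 (adjusted p = 0.0609 in both). The difference in cytarabine effect was 0.35 ± 0.124 between WT and EV (adjusted p = 0.341) and -0.45 ± 0.124 between MUT and WT (adjusted p = 0.0844). Of 23 tested genes within 2 Mb of GARS, 5 were higher in treated WT than in treated EV and 2 lower. In treated MUT 0 of them were lower than in treated WT and 2 higher. Of all genes 7.41% were higher in the first comparison and 9.48% lower in the second.

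YARS2 (chr12:32727490-32755903, minus strand) gave 39.6, 38.6 and 36.7 CPM in treated EV, 36.2, 37.3 and 36.2 CPM in treated WT and 27.6, 29.3 and 27.4 CPM in treated MUT. Without cytarabine it gave 54.5, 48.3 and 48.0 CPM in EV, 46.4, 49.8 and 48.5 CPM in WT and 40.5, 42.2 and 49.5 CPM in MUT. Treated MUT lay below both other lines, and the untreated lines overlapped. MUT stood below WT by -0.38 ± 0.0775 and below EV by -0.45 ± 0.0775 with cytarabine (SE; edgeR adjusted p = 0.00166 and 0.000721; 26 of 27 alternatives each), and the differences in cytarabine effect were -0.25 ± 0.109 and -0.26 ± 0.109 (adjusted p = 0.278 and 0.262). DNM1L runs on the other strand across 18162 bases of YARS2. Of 27 tested genes within 2 Mb of YARS2, 9 were lower in treated MUT than in treated WT and 7 than in treated EV. In either comparison 0 were higher, where 9.48% and 7.13% of all genes were lower. Treated MUT was also lower in NARS at -0.35 from EV and -0.38 from WT, RARS at -0.34 and -0.32, and WARS at -0.25 and -0.28 (NARS and RARS 26 of 27 alternatives each, WARS 21 and 24). Of tested genes within 2 Mb, 2 of 17 around NARS, 0 of 11 around RARS and 10 of 24 around WARS were lower in treated MUT than in EV. Their medians were -0.13, -0.10 and -0.34, and 0 were higher. Against treated WT 5, 3 and 5 were lower and 2, 0 and 3 higher, with medians of -0.25, -0.02 and -0.01.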

How the data were processed

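RNA-seq libraries were made with a NEBNext Ultra kit, per the labels' protocols, and aligned to hg38 with STAR 2.6.1d after CASAVA, per the submitters' processing notes; the counter, its strand setting and its handling of reads with several positions are not given in the sources used here. The authors deposited estimated counts per gene, of which 70.4% were whole (tolerance 0), and all were rounded. A second deposited table held signal equal to 1 plus a factor times the count (largest relative deviation 7.33e-06), and served only as a scaling alternative. The 18 libraries held 15.4 M to 21.9 M counts, replicates differed beyond counting noise (chi-square per degree of freedom 2.21 to 35.8), and p-values measure the spread between these samples only. There were 4 rows that shared a symbol with another.

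All 6 groups were fitted together with edgeR 4.0.16 (R 4.3.3, limma 3.58.1), using filterByExpr, TMM factors, the quasi-likelihood test and Benjamini-Hochberg adjustment over 18226 genes at 0.05; differences of cytarabine effects were interaction terms. CPM is per 1e+06 of the TMM-scaled library, and the prior count for log2 values was 2. Alternatives were other factors (RLE, upper quartile, the authors'), no filter, a mean of at least 50 counts, a minimum fold of 1.2, only the groups compared, a replicate block, DESeq2 1.42.0 and each library left out. Counts simulated for the cytarabine effect in EV (17705 genes) were recovered for 76% of 96 genes at a true log2 change of 1 and for 40% of 95 at 0.5, with 2 false calls. The changed genes were drawn from all abundances, and all other genes were simulated without a change. In the data 22.9% of genes were lower and 26.1% higher in EV, so these rates do not carry over to the members.

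Gene positions, neighbours and overlaps came from the coordinates deposited with the counts. MANE transcript lengths came from GENCODE 44 on GRCh38, and all 36 members overlapped their position there. Promoters came from RefSeq on GRCh38.p14. Neighbours were tested genes within 2 Mb. The genes given by library were, by rule, the 3 largest rises and falls past the threshold in each cytarabine comparison, the 3 largest differences in each line comparison, members past the threshold in an interaction and those on chromosome 16; other lists were given by counts with up to 4 of their largest changes. The members and lists were chosen with earlier results of these data known.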

Additional observations from a re-analysis of the deposited data

Results flagged for a closer look

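FARSB, the beta subunit of the phenylalanine enzyme, fell more with cytarabine in MUT than in WT cells. The difference of the 2 effects was -0.42 on the log2 scale, and it was singled out because the test of the difference itself passed the threshold (edgeR quasi-likelihood adjusted p = 0.0465; adjusted p 0.00141 to 0.597 over the alternatives). The call passed in 12 of 27 alternatives. All 3 untreated MUT libraries lay above every other untreated library, at 102 to 116 CPM against 80.4 to 88.0 CPM, while the treated libraries of the lines overlapped. Of 14 tested genes within 2 Mb of FARSB, 3 were higher in untreated MUT than in EV and 0 lower, with a median of 0.32. Against untreated WT 1 was higher and 1 lower, with a median of 0.11. Of all genes 9.88% and 11.7% were higher in these 2 comparisons.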

How the results depend on the processing

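Of 173 member results, none that passed the threshold under either setting changed sign among 1557 values from 9 settings or 3114 values with 1 library left out; 147 and 252 of these values lost a call and 15 and 6 gained one. With a minimum fold of 1.2 the counts of members called fell to 10 (cytosolic, cytarabine in EV), 5 (cytosolic, WT), 5 (mitochondrial, WT), 0 (difference of effects, MUT against WT), and for the line comparisons to 1, 1 and 2 untreated and 1, 3 and 1 treated (WT against EV, MUT against EV, MUT against WT). With only the groups compared they were 3 and 0 for the differences WT against EV and MUT against WT, and 16, 5 and 2 for the untreated lines. RLE, upper-quartile and the 50-count filter each gave 1 for the MUT against EV difference and DESeq2 gave 3; for MUT against WT the filter gave 3 and DESeq2 9.

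With 1 library left out the cytarabine counts ran from 17 to 18 and 9 to 9 in EV, 12 to 16 and 6 to 9 in WT and 16 to 19 and 10 to 13 in MUT (cytosolic and mitochondrial). The differences ran from 0 to 1 (WT against EV), 0 to 3 (MUT against EV) and 0 to 9 (MUT against WT). The line comparisons ran from 4 to 8, 11 to 16 and 8 to 15 untreated and 2 to 13, 6 to 14 and 6 to 13 treated. Without GARS and KARS, which serve both compartments, the cytosolic counts were 16, 14 and 16.

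Values that changed sign, none of them past the threshold, were in EV SARS (0.0479 upper quartile, 0.029 with the 50-count filter), AARS2 (0.0658, 0.0472, and 0.00054 with only the groups compared), IARS2 (0.0287, 0.0099), TARS2 (0.028, 0.0088) and CARS2 (-0.0498, authors' factors); in WT GARS (0.0351, 0.0216), SARS (-0.0134, authors' factors) and PARS2 (-0.0389, authors' factors); in MUT QARS (-0.0129 RLE, -0.0545 authors' factors, -0.0119 DESeq2) and AARS2 (-0.038 RLE, -0.0765 authors' factors, -0.0124 without a filter, -0.0027 with only the groups compared, -0.0381 DESeq2). With 1 library left out they ran in EV from -0.0549 to 0.0039 (SARS), -0.0896 to 0.0502 (AARS2) and -0.0546 to 0.0929 (CARS2), in WT from -0.0447 to 0.0216 (GARS) and -0.0518 to 0.1076 (PARS2), and in MUT from -0.0085 to 0.0545 (QARS) and -0.1834 to 0.1566 (AARS2). The causes were not tested.

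After the group mean of each gene was taken off, the same-numbered untreated and treated libraries of a line correlated between -0.036 and 0.326. Libraries with different numbers were not compared in this way, so whether the numbers pair the samples was not settled. With the replicate number as a block, the counts were 14 for the cytosolic set in WT, 11 for the mitochondrial set in MUT, and 7 and 12 for treated WT and MUT against EV. Scaling moved the median of all genes by less than 0.1. The share of higher calls went from 55.1% to 65.4% for untreated MUT against WT with RLE factors. For the differences of effects it went from 50.8% to 29.1% (MUT against WT, RLE), from 50% to 68.8% (WT against EV, authors' factors) and from 71.8% to 46.3% and 48.1% (MUT against EV, upper quartile and RLE).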
